A study of Homo sapiens with 8 samples.

Results

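The 2755 sites described here are the places where the UVC, UVA and iCLIP lists of PTB all had a peak and neither control list did. They are merged UVC sites, chosen by the deposited peak positions: peaks of the list of PTB crosslinked with UVC that lay within 20 nt on 1 strand were joined into 80531 sites, and a site was kept if it shared at least 1 nt on its strand with a peak of PTB crosslinked with UVA and with a peak of the PTB iCLIP list, and none with a peak of PTB without UV or of YFP with UVC. They are called shared sites below. They made up 3.42% of the UVC sites and covered 172.521 kb, which was 4.59% of the nucleotides in UVC sites. This count and these overlaps describe the choice and carry no test.

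All samples came from 293T cells, an established line from human embryonic kidney, that carried either Halo-tagged PTB or Halo-tagged YFP as a transgene, with puromycin in the medium. The groups were Halo-PTB with UVC (2 samples), Halo-PTB with UVA (2 samples), Halo-PTB without UV (2 samples) and Halo-YFP with UVC (2 samples), and each had 1 pooled list of peaks. The iCLIP list was made by the submitters from reads of another PTB study with the same peak-calling methods, and the cells of that study are not named in the series text. No list carries read numbers, so depth is unknown, and with 1 list a group no spread between replicates can be given. The tagged protein came from a transgene in 1 cell line, and the labels do not give its promoter or whether the line is 1 clone.

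PTB, the polypyrimidine tract binding protein, is an RNA-binding protein with several RNA recognition motifs that contact short runs of uridine and cytidine. It is best known for repressing exons, among them exons used in neurons, by binding pyrimidine-rich stretches of the flanking introns, and it also binds the untranslated ends of messenger RNAs and long noncoding RNAs in the nucleus. Crosslinking and immunoprecipitation (CLIP) fixes such contacts with ultraviolet light, isolates the protein and sequences the attached RNA. GoldCLIP, the protocol of this series, isolates the protein through a covalent Halo tag without a gel, and iCLIP is the earlier gel-based form. UVC light crosslinks natural bases directly, whereas UVA light is commonly combined with a photoactivatable uridine analogue, which the labels do not mention. Sites are given by position and strand in the human build hg19, and gene and exon annotation and genome sequence of that build were not used here.

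The shared sites named first are those that ranked highest in all 3 PTB lists at once, which is how they were chosen. Each site was given the percentile of its best deposited score among the merged sites of each list, and the sites were ordered by the lowest of the 3 percentiles. The score is the authors' own value per peak, rises as the peak's p-value falls and is limited to 1000, so it ranks peaks within 1 list and measures no binding between lists. Peaks whose deposited p-value and score were both 0 were set to 1000 here, which is a choice of the processing. It gave the limit to 20 of the 482 shared sites at 1000 in UVA, 3 of 59 in iCLIP and 0 of 4 in UVC. The first 12 all had a lowest percentile of 99.0, which is that of the score limit in the UVA list, and 30 sites were tied there, so longer overlap among the 3 lists decided their order. The UVA score of 1000 was deposited as such at all 12. With scores of 0 kept as deposited, 11 of the 12 stayed among the 28 sites tied at the top, and chr16:2819162-2819259 did not. The site chrX:107964682-107964893 on the minus strand was 212 nt wide, scored 1000 in UVC and 1000 in UVA. Its iCLIP score was set to 1000 from a peak deposited at 0, and its highest other deposited iCLIP score was 755. Its nucleotides common to all 3 lists numbered 152, and the nearest control peak lay 588 nt away. The site chr22:38881743-38881835 (minus) had the next highest UVC score of the 12, at 965, with 1000 in UVA and 928 in iCLIP, and all of its 93 nt were common to the 3 lists. A control peak lay 516 nt from it.

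Chromosome 19 held 4 of these 12 sites, all on the plus strand. A pair of them lay in 1 neighbourhood: chr19:54969988-54970101 scored 196 in UVC, 1000 in UVA and 1000 in iCLIP, and chr19:54973063-54973176 scored 259, 1000 and 968 in the same order. Each was 114 nt wide, and each had a further shared site beside it, 53 nt and 30 nt away. The site chr19:39888751-39888884 scored 233, 1000 and 668 and was covered over all of its 134 nt by both other lists. The site chr19:41829236-41829387, 152 nt wide, scored 216, 1000 and 699. The nearest control peaks lay 887205, 890280, 14252 and 535476 nt from these 4 sites.

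The remaining 6 lay on 5 chromosomes. On chromosome 11, chr11:65195165-65195325 (plus, 161 nt) scored 207 in UVC, 1000 in UVA and 1000 in iCLIP. On chromosome 5, chr5:41918456-41918599 (plus, 144 nt) scored 195, 1000 and 694 and belonged to a run of 4 shared sites within 958 nt. On chromosome 3, chr3:196083265-196083379 (minus) scored 430, 1000 and 916, the highest UVC score among these 6. On chromosome 16, chr16:2819162-2819259 (plus) scored 285 in UVC and 1000 in UVA, and its iCLIP score of 1000 was set from a deposited 0. Both sites on chromosome 1, chr1:14107480-14107587 (plus) with 154, 1000 and 514 and chr1:23649401-23649500 (minus) with 167, 1000 and 959, had the lowest UVC scores of the 12.

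The longest stretches common to all 3 lists came with a wide range of UVC scores. At chr9:116169945-116170171 (minus) 191 of 227 nt were common to the 3 lists, with a UVC score of 103 beside 1000 in UVA and 1000 in iCLIP. At chr17:8063713-8063896 (minus) the common stretch was 166 nt, with scores of 350, 1000 and 271, where the UVA value was set from a deposited 0 and the highest other deposited UVA score was 791. At chr10:73990740-73990898 (plus) it was 152 nt, with scores of 84, 901 and 90, and the iCLIP percentile of that site was 74.1. The site on chromosome X described above tied with it at 152 nt, with a UVC score of 1000. Over all shared sites the median stretch common to the 3 lists was 27 nt (95% interval of the median 26 to 28), or 48.5% of the site. It was 0 at 120 sites (4.36%), where UVA and iCLIP peaks met different parts of the UVC site, and it filled the whole site at 324 (11.8%).

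Most shared sites ranked in the upper 50% of all 3 lists, and 9.98% ranked in the top 10% of all 3. The median percentile was 75.8 in UVC (interval 73.8 to 80.6), 86.5 in UVA (85.5 to 87.4) and 77.9 in iCLIP (76.0 to 79.6). The median scores behind these were 29, 317 and 102. Other UVC sites on no control peak also ranked high where they met 1 partner list. Those that met a UVA peak and no iCLIP peak had median percentiles of 70.5 in UVC and 70.6 in UVA. Those that met an iCLIP peak and no UVA peak had 63.4 in UVC and 73.3 in iCLIP. For those that met neither, the UVC median was 46.7. In all 3 lists together, 1462 shared sites (53.1%, exact 95% interval 51.2 to 54.9) lay in the upper 50%, 275 (9.98%) in the top 10%, and 63 (2.29%) in the lower 50%. Sites that miss a list have no percentile there, so no joint share of all UVC sites stands beside these. Taken list by list, 32.7% of shared sites lay in the top 10% in UVC, 42.4% in UVA and 32.3% in iCLIP. The score limit was reached by 4 shared sites in UVC, 482 in UVA and 59 in iCLIP. Rank order carried over only in part between lists: over the 2755 sites Spearman's rho was 0.38 between UVA and iCLIP scores, 0.31 between UVC and UVA and 0.18 between UVC and iCLIP. The UVC score also went with the width of the UVC site (rho 0.69). Among the 492 sites exactly 50 nt wide the values were 0.40, 0.11 and 0.14. These correlations are across sites that share their libraries and, in places, their peaks, and are given as a description.

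Seen from the partner lists, the shared sites drew on the top of each. They met 2727 UVA sites (3.89% of 70110) and 2704 iCLIP sites (5.16% of 52446). In the top 10% of UVA sites by score 15.6% met a shared site (interval 14.7 to 16.4), against 0.119% in the bottom 10%. In iCLIP the values were 15.7% (interval 14.7 to 16.7) and 1.78%. UVA sites met by a shared site had a median score of 296, against 147 for UVA sites that met an iCLIP peak and no UVC peak, 147 for those that met a UVC peak and no iCLIP peak, and 60 for UVA sites that met neither. For iCLIP the medians were 96 at sites met by a shared site, 76 at sites meeting a UVC peak and no UVA peak, 56 at sites meeting a UVA peak and no UVC peak and 40 at sites meeting neither. Partner sites met by a shared site were also wider, with a median of 81 nt against 36 nt for UVA sites meeting neither list, and 68 nt against 34 nt for iCLIP, and a wider site has more room to overlap.

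**Figure D1:**
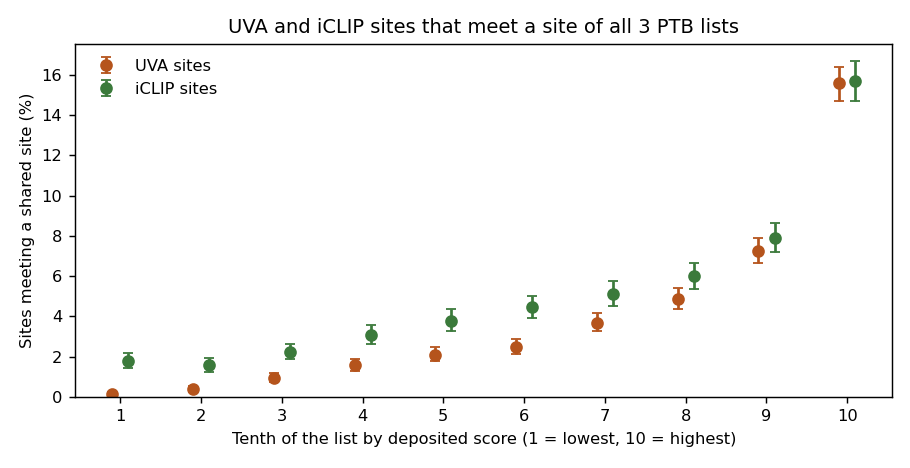
Share of UVA sites and of iCLIP sites that met a shared site (vertical axis, percent), by 10% step of each list from the lowest to the highest deposited score (horizontal axis). Bars are exact 95% intervals for counting error. In both lists the share is below 2% in the lowest step and reaches 15.6% (UVA) and 15.7% (iCLIP) in the highest.

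The shared sites were wider than other UVC sites on no control peak. For this comparison 4 classes of UVC site on no control peak were set side by side: the 2755 shared sites, 5973 sites that met a UVA peak and no iCLIP peak (UVC+UVA), 2144 that met an iCLIP peak and no UVA peak (UVC+iCLIP) and 69028 that met neither (UVC alone). Over all UVC sites 11.3% met a UVA peak, 6.25% an iCLIP peak and 0.784% a control peak. A width over 50 nt was found in 54.6% of shared sites (interval 52.7 to 56.5), 46.1% of UVC+UVA sites, 26.8% of UVC+iCLIP sites and 12.3% of UVC-alone sites. Of the UVC sites on control peaks, 75% of the 120 in all 3 PTB lists and 58.7% of the other 511 were over 50 nt wide, more than of the shared sites. A width over 100 nt was found in 11.3% of shared sites, 5.86% of UVC+UVA sites, 1.49% of UVC+iCLIP sites and 0.672% of UVC-alone sites. A width of exactly 50 nt, found in 28.6% of all UVC sites, was that of 17.9% of shared sites and 30.1% of UVC-alone sites. Most shared sites were nevertheless a single deposited interval: 1970 (71.5%) held 1 distinct UVC peak and 94 (3.41%) held 3 or more.

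The share of UVC sites that were shared sites stepped up at 50 nt. It was 1.45% at widths up to 30 nt, 1.42% from 31 to 39 nt, 1.99% from 40 to 49 nt and 2.13% at exactly 50 nt (interval 1.95 to 2.33). From 51 to 75 nt it was 8.70% (interval 8.18 to 9.25), from 76 to 100 nt 16.2%, above 100 and up to 150 nt 22.1%, and above 150 nt 43.4% (59 of 136 sites, interval 34.9 to 52.1). The step was present at like scores. Among UVC sites scoring 21 to 50, 2.13% of those 40 to 50 nt wide, 7.94% of those 51 to 75 nt wide and 13.9% of those above 75 nt were shared sites. Within the 40 to 50 nt class the share was 1.89% at scores up to 20 and 4.95% above 100 (11 of 222, interval 2.50 to 8.69). Overlap with a longer interval is likelier by its length alone, and how much of the step this gives was not tested.

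By score, the share was highest below the top of the range. It was 1.74% at UVC scores up to 16, 2.84% from 21 to 30, 11% from 51 to 100 and 24.1% from 201 to 500 (82 of 340, interval 19.7 to 29.0). Above 500 and below the limit it was 18.1% (13 of 72), and at the limit of 1000 it was 6.67% (4 of 60, interval 1.85 to 16.2). Control peaks moved with the top of this range: 26.5% of UVC sites scoring 201 to 500, 55.6% of those above 500 and below the limit and 86.7% of those at the limit lay on a control peak, which the rule removes. The 120 sites in all 3 PTB lists that lay on a control peak had a median UVC score of 142, against 29 for the shared sites, and a median width of 68.5 nt.

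**Figure D2:**
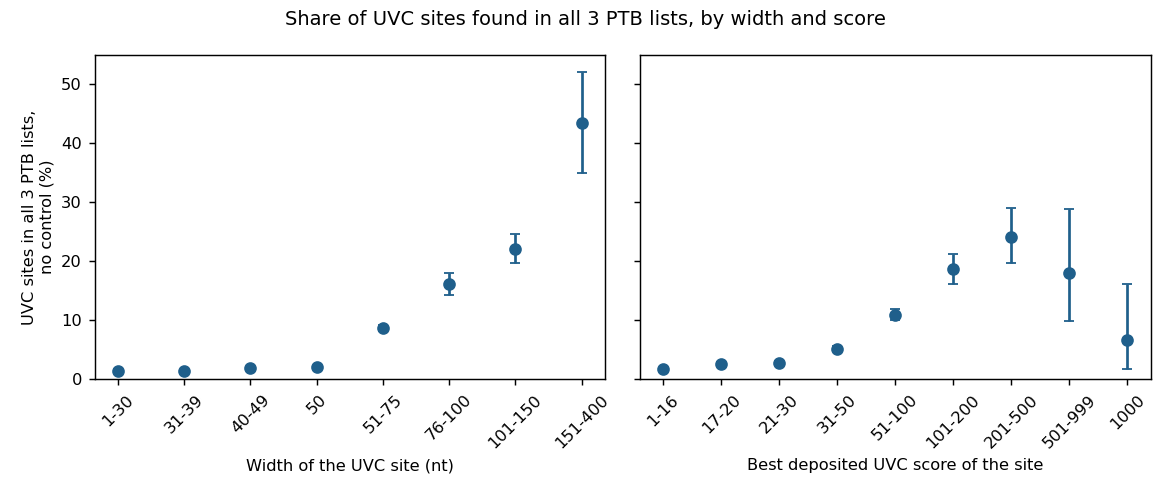
Share of UVC sites that were shared sites (vertical axis, percent) by width of the UVC site in nt (left) and by its best deposited UVC score (right), with exact 95% intervals for counting error. The share stays at or below 2.13% up to a width of 50 nt and is 8.70% from 51 to 75 nt, and by score it peaks at 24.1% between 201 and 500.

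The peaks of the 3 lists were displaced from each other along the RNA at the shared sites. For each site the UVA peak and the iCLIP peak with the longest overlap were taken, and the distance from the midpoint of the UVC site to theirs was counted along the strand, positive toward the 3' end. The rule asks for an overlap but not for a side. The UVA midpoint lay a median of 5.5 nt toward the 3' end (interval 4.0 to 6.5), and the iCLIP midpoint a median of 8.0 nt toward the 5' end (median offset -8.0 nt, interval -9.5 to -7.0). UVA peaks were on the 3' side at 1569 sites and on the 5' side at 1167. The iCLIP peaks were on the 3' side at 1063 sites and on the 5' side at 1674. At 739 sites (26.8%) UVA lay on the 3' side and iCLIP on the 5' side of the UVC midpoint, against 232 sites (8.42%) with the opposite arrangement. The spread was wide beside these medians, with the central 50% of sites between -13.0 and 24.5 nt for UVA and between -27.0 and 12.5 nt for iCLIP.

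The direction was alike on both strands. On the plus strand the medians were 6.0 nt for UVA and -8.0 nt for iCLIP, and on the minus strand 4.5 nt and -8.0 nt. The UVA midpoint lay 11 nt (median, interval 9.5 to 12) to the 3' side of the iCLIP midpoint of the same site. This was so at 1880 sites (68.2%, interval 66.5 to 70.0), and the chromosome median was above 0 on 23 of 23 chromosomes with shared sites, from 6.5 to 18.5 nt. At sites exactly 50 nt wide the medians were 8.5 nt for UVA and -3.0 nt for iCLIP, and at UVC scores up to 20 they were 5.0 and -8.0 nt. From the UVC ends, the UVA 5' and 3' ends lay at medians of 4.0 and 5.0 nt over all shared sites. Those of iCLIP lay at -10.0 and -5.0 nt. At exactly 50 nt, however, the iCLIP 3' end lay at 3.0 nt. At scores up to 20 the UVA 5' end lay at -2.0 nt and the iCLIP 3' end at 1.0 nt. The UVA 3' end lay at -1.0 nt in sites over 50 nt and at -3.0 nt at scores over 50. The other end medians of these classes kept the direction of the midpoints. The part of width was not tested. When partner peaks lying within 20 nt of each other were first joined, the UVA offset was 11.5 nt and the distance from iCLIP to UVA 19.5 nt. Among UVC+UVA sites the UVA offset was 2.5 nt (interval 2.0 to 3.5), and among UVC+iCLIP sites the iCLIP offset was -3.25 nt (interval -4.5 to -1.5).

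The displacement was not limited to places with a UVC peak. UVA sites met by a shared site and by an iCLIP peak had their midpoint 15 nt (interval 13.5 to 16) to the 3' side of that peak's midpoint, and 72.7% of the 2579 had it on that side. UVA sites that met an iCLIP peak with no UVC and no control peak had it 8.5 nt (interval 8.0 to 9.0) to the 3' side, and 66.8% of 10167 had it on that side. The difference in these shares was 5.94 percentage points (interval 3.96 to 7.86). The first group of UVA sites was wider, and the part of width in this difference was not tested.

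**Figure D3:**
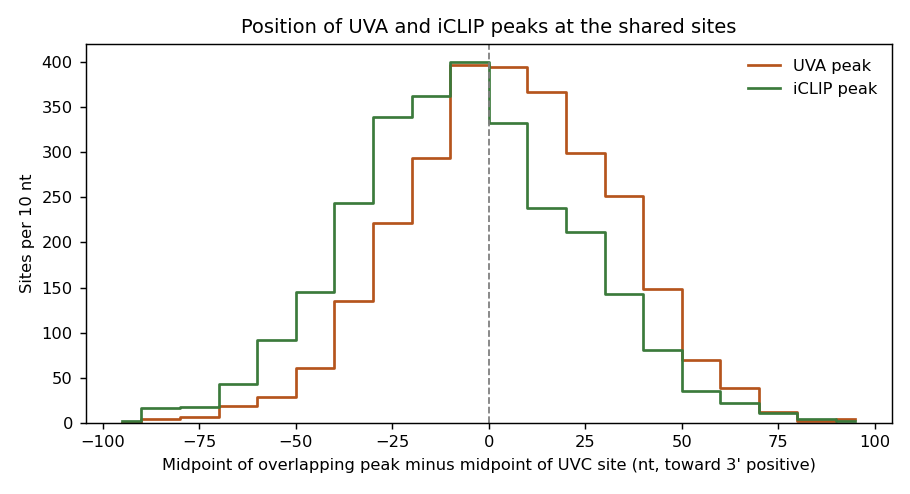
Number of shared sites per 10 nt (vertical axis) by the distance in nt from the midpoint of the UVC site to the midpoint of the overlapping UVA peak or iCLIP peak, positive toward the 3' end (horizontal axis). The UVA curve is displaced to the right of the dashed zero line (median 5.5 nt) and the iCLIP curve to the left (median -8.0 nt), and the curves overlap over most of their range.

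The surroundings of the shared sites held further PTB sites. The rule did not use such neighbours, but they were counted in the same UVC, UVA and iCLIP lists that it used. The counts are therefore not independent of the choice, and how much of them follows from it was not tested. Sites of each list that did not overlap the UVC site but lay within 200 nt of it on the same strand were counted. Another UVC site lay that near to 1026 shared sites (37.2%), against 15% of all UVC sites. Another UVA site did so for 1416 (51.4%), against 14.7% of all, and another iCLIP site for 1127 (40.9%), against 9.54% of all. Compared with UVC-alone sites the shares were higher by 25.2 percentage points for UVC (interval 23.4 to 27.0), 41.6 for UVA (interval 39.8 to 43.5) and 34.7 for iCLIP (interval 32.9 to 36.6).

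Against the classes that met 1 of the other PTB lists, the differences were smaller than against UVC-alone sites. Their share with another UVC site was 3.32 points above that of UVC+UVA sites (interval 1.16 to 5.50) and 13.7 points above that of UVC+iCLIP sites (interval 11.2 to 16.3). Their share with another UVA site was 6.29 points above that of UVC+UVA sites (interval 4.04 to 8.54) and 17.4 points above that of UVC+iCLIP sites (interval 14.7 to 20.2). Their share with another iCLIP site was 18.8 points above that of UVC+UVA sites (interval 16.7 to 20.9). Set against UVC+iCLIP sites, 40.9% of shared sites and 41.0% of UVC+iCLIP sites had another iCLIP site within 200 nt, a difference of -0.0441 points with an interval from -2.82 to 2.73. Within 1000 nt the difference was 2.85 points (interval 0.134 to 5.57). These intervals are for counting error and treat sites as independent, which neighbouring sites are not. By UVC score, another UVA site was found beside 52.5% of those scoring up to 20, 51.4% of those from 21 to 50 and 50.3% of those above 50. Another UVC site was found beside 35.7%, 35.3% and 42.2% of the shared sites in the same score classes, and another iCLIP site beside 42.7%, 42.1% and 36.8%.

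Control sites were also commoner near shared sites. A control site lay within 1000 nt, without overlap, of 189 shared sites (6.86%), against 2.62% of all UVC sites. A no-UV site lay that near to 4.75% of shared sites, 5.04% of UVC+UVA sites, 1.96% of UVC+iCLIP sites and 1.40% of UVC-alone sites. YFP sites did so for 2.36%, 2.39%, 0.700% and 0.577%. For both controls the shares were highest in the classes that met a UVA peak. The peak lists hold no measure of how abundant the underlying RNA was, and the part of abundance in these counts was not tested.

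**Figure D4:**
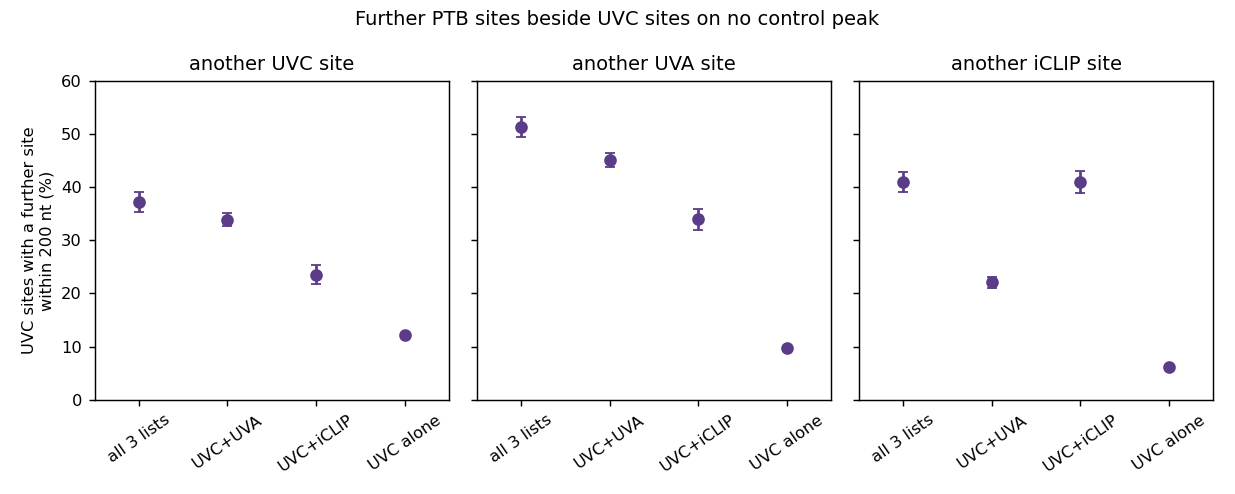
Share of UVC sites with a further UVC, UVA or iCLIP site within 200 nt on the same strand (vertical axis, percent) for shared sites and the 3 other classes of UVC site on no control peak, with exact 95% intervals for counting error. Shared sites have the highest shares for UVC (37.2%) and UVA (51.4%), and for iCLIP their share of 40.9% lies beside that of UVC+iCLIP sites.

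The nearest and farthest control peaks show the range of settings. At chr21:46204029-46204077 (minus) a control peak began directly beside the shared site, which scored 22 in UVC, 1000 in UVA and 78 in iCLIP. At chr2:239001541-239001590 (plus), also directly beside one, the scores were 23, 41 and 25. A gap of 2 nt separated chr17:30809056-30809111 (plus), with 115, 1000 and 1000, from a control peak. In all, 21 shared sites (0.762%) lay within 20 nt of a control peak and 518 (18.8%) within 10000 nt. The farthest were chr8:133814674-133814723 (plus), chr3:88107976-88108015 (minus) and chr8:3518017-3518070 (minus), at 8992449, 9133715 and 9580403 nt. Their UVC scores were 16, 21 and 266.

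The shared sites gathered in places. Another shared site lay within 200 nt of 399 of them (14.5%, interval 13.2 to 15.9), within 1000 nt of 658 (23.9%) and within 10000 nt of 1039 (37.7%). Joined at gaps of up to 1000 nt they formed 2392 runs, of which 2097 held 1 site, 240 held 2, 44 held 3, 9 held 4 and 2 held 5. Some shared sites met the same partner site: 224 shared sites met a UVA site that another shared site also met, 214 did so for iCLIP, and 284 (10.3%) did so for either. These are not separate observations of UVA or iCLIP binding, and their part in the counts of near shared sites was not tested.

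The 2 runs of 5 sites were unlike each other. On chromosome 11, plus strand, 5 sites lay between 65271121 and 65272329, with UVC scores of 127, 148, 287, 168 and 792 along the strand, UVA scores of 1000 at each, and iCLIP scores of 589, 589, 92, 239 and 464. Control peaks lay close by, at 422, 274, 109, 38 and 44 nt from these sites. On chromosome 19, plus strand, 5 sites lay between 47112413 and 47113836, with UVC scores of 50, 22, 52, 42 and 31. Their UVA scores were 1000, 1000, 225, 168 and 103 and their iCLIP scores 82, 40, 52, 19 and 28, so that every iCLIP score lay below the 102 that was the median of shared sites, and the nearest control peak was 532271 nt away. The tightest run of 4 sites, on the minus strand of chromosome 1 between 23646753 and 23647076, lay within 324 nt and carried UVC scores of 60, 17, 25 and 35 by rising position, with the same UVA score of 1000 and the same iCLIP score of 962 at each. The 10 kb from 23640001 to 23650000 held 5 shared sites but 3 UVA sites and 3 iCLIP sites. Some of these equal scores therefore come from the same partner site.

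In windows of 100 kb on 1 strand, 1370 of the 1922 windows with a shared site held 1. The fullest was the plus-strand window of chromosome 11 that starts at 65100001, with 11 shared sites, which were 45.8% of its 24 UVC sites. Of these, 10 lay in the 10 kb from 65190001 to 65200000, which held 18 UVC sites, 29 UVA sites, 35 iCLIP sites and 0 sites of either control. UVC scores of these 10 ran from 23 to 207, UVA scores from 55 to 1000 and iCLIP scores from 164 to 1000. The minus-strand window of chromosome 1 from 23600001 held 10 shared sites with a median UVA score of 930.5 and a median iCLIP score of 643.5. In these medians a partner site met by several shared sites counts for each of them. The window of chromosome 11 from 65200001 held 8, or 18.2% of its 44 UVC sites, beside 7 no-UV and 9 YFP sites. The minus-strand window of chromosome 1 from 16900001 held 7, all within 14359 nt, which were 43.8% of its 16 UVC sites. A further 5 windows held 6 shared sites each. Among them was the plus-strand window of chromosome 10 from 96300001, with median scores of 100 in UVC, 944.5 in UVA and 640 in iCLIP.

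Chromosomes differed in how many of their UVC sites were shared sites. Chromosome 19 had the highest share, 270 of 3379 (7.99%, interval 7.10 to 8.96), followed by chromosome 17 with 5.0% (interval 4.37 to 5.70) and chromosome 16 with 4.62% (interval 3.8 to 5.55), whose intervals overlap. The lowest were chromosome 4 with 56 of 3711 (1.51%, interval 1.14 to 1.96), chromosome 18 with 2.05% (interval 1.48 to 2.77) and chromosome 2 with 2.27% (interval 1.90 to 2.68), with chromosome 18 overlapping both neighbours. Chromosome 1 held the most shared sites, 360 (13.1% of them, beside 10.5% of UVC sites). Chromosome 19 held 9.80% of the shared sites, beside 4.20% of UVC, 8.70% of UVA and 6.46% of iCLIP sites.

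The higher share of chromosome 19 was also seen within broad classes of UVC site by width and score. Its median UVC score was 21 and its median width 50 nt, the values over all UVC sites being 21 and 49 nt, but wide sites were commoner there, with 817 of its 3379 UVC sites over 50 nt, against 12865 of 77152 elsewhere. Among UVC sites 40 to 50 nt wide and scoring up to 50, 4.27% on chromosome 19 and 1.89% elsewhere were shared sites, a difference of 2.38 points (interval 1.58 to 3.36). Among sites over 50 nt wide, 17.0% on chromosome 19 and 10.6% elsewhere were shared sites, and the difference had an interval from 3.92 to 9.18 points. Sites over 50 nt were not split further by width or by score. The part of width and score in these differences was not tested. On chromosome 19, 23.5% of UVC sites met a UVA peak and 11.2% an iCLIP peak, against 6.47% and 3.96% on chromosome 4. Of the UVC sites meeting a UVA peak, the share that also met an iCLIP peak was 35% on chromosome 19 and 23.8% on chromosome 4. It was highest on chromosomes 13 (41.3%), 10 (38.1%) and 1 (35.8%), and lowest on chromosome 20 (23.5%), close to chromosome 4, among chromosomes 1 to 22 and X. No interval is given for these shares, so their order is not settled. Chromosome 13 had 1765 UVC sites, of which 7.14% met a UVA peak, so its share rests on few sites. Counted over UVA sites, 4.18% of those on chromosome 19 met a shared site, near the 3.89% of all UVA sites, and counted over iCLIP sites 7.70% did, against 5.16% of all.

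**Figure D5:**
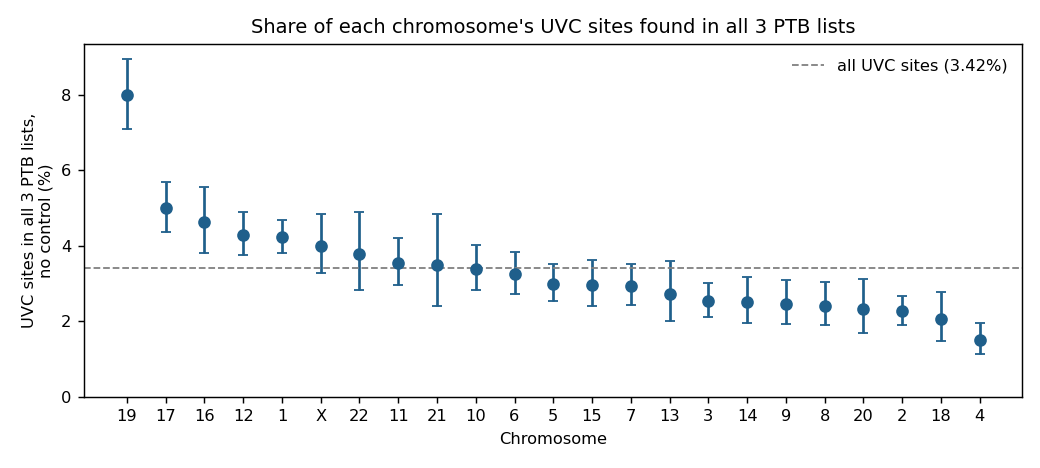
Share of each chromosome's UVC sites that were shared sites (vertical axis, percent), with exact 95% intervals for counting error, for chromosomes 1 to 22 and X in falling order. Chromosome 19 (7.99%) stands above all others and chromosome 4 (1.51%) is lowest, and the dashed line marks the 3.42% of all UVC sites.

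Strand did not distinguish the shared sites: 1433 lay on the plus strand and 1322 on the minus strand (52.0% plus, interval 50.1 to 53.9), as did 51.9% of all UVC sites. Peaks on the opposite strand were nearly absent at their positions, with no count over other UVC sites to set beside this. There was 1 shared site with a UVA peak on the opposite strand, and none of the 2755 had an opposite-strand peak of the UVC, iCLIP, no-UV or YFP list, which allows a share of up to 0.109% for each.

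Sites just inside and just outside the rule had the following values. The UVA peaks covered 1 nt of 21 shared sites, with a median UVC score of 22 and a median width of 50 nt, while 13 of the 2144 UVC+iCLIP sites adjoined a UVA peak without sharing a nucleotide, with medians of 29 and 50 nt. The iCLIP peaks covered 1 nt of 14 shared sites (medians 19.5 and 44 nt), while 16 of the 5973 UVC+UVA sites adjoined an iCLIP peak (medians 32 and 54 nt). Of the UVC sites that met a UVA peak, 31.7% also met an iCLIP peak, against 3.02% of the UVC sites that met no UVA peak. These shares include the sites on control peaks and follow from the lists the rule used.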

How the data were processed

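The submitters' processing notes name Bowtie 1.1.2 and the builds dm3 and hg19, with no role for each. Which peak caller and filters were used, and how replicates were pooled, is not given in the sources used here. Positions were read as hg19, since 22 UVA, 8 iCLIP and 1 UVC peak of chromosome 1 lie past the last GRCh38 gene. The deposited score and p-value of each peak are the authors' own. Peaks whose p-value and score were both 0 (538 of UVA, 148 of UVC, 104 of iCLIP, 39 of YFP) were set to the score limit of 1000. Depth per sample is unknown.

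Peaks were joined within 20 nt per strand and overlaps counted from 1 nt. A bedtools 2.31.1 count also gave 80531 sites and 2755 members, and the functions were tested on simulated lists. A site is near another if it meets it when extended by the distance given. Shares carry exact Clopper-Pearson 95% intervals, medians an order-statistic interval and differences of shares a Newcombe interval. These limits treat sites as independent and cover counting error alone. No test was run. The 21 sites named individually were taken by rule: the 12 with the highest lowest percentile, the 3 with the longest common stretch, and the 3 nearest to and farthest from a control peak. Members, bands, runs and lists were chosen with earlier results of these data known. Gene lists and motif counts planned for an hg19 genome and annotation were not run. Scripts ran in Python 3.11.15 (pandas 2.3.3, numpy 2.4.6, matplotlib 3.10.9, scipy 1.17.1).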

Additional observations from a re-analysis of the deposited data

How the results depend on the processing

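Of 139 recomputed values, 107 stayed within 1.5 times (counts) or within the 95% interval of the reported value, and 32 moved. No recomputed offset changed sign, and offsets of 3' ends were not among them. Strand ignored (no offset or strand share can then be given), chromosomes 1 to 22 and X, control peaks kept, no control peak within 500 nt, repeated intervals counted once and scores of 0 kept as deposited moved none of the results computed. For 2 of these settings this was largely fixed in advance. No shared site lay on chromosome Y, so leaving it out could move no value. Counting repeated intervals once cannot change merged sites or overlaps. The 107 include the values of both settings and so overstate stability. Merging touching peaks alone put 27.5% of sites within 1000 nt of another shared site, and merging within 50 nt gave 18.2% and a median width of 54 nt. Requiring 10 nt of overlap gave median percentiles of 87.9 (UVA) and 79.8 (iCLIP) and 20.8% within 1000 nt. Requiring 50% of the site to be covered left 1424 sites, with percentiles of 90.6 (UVA) and 85.1 (iCLIP), 11.6% on chromosome 19 and 18.5% within 1000 nt. Dropping peaks under the median score of their list left 1486 sites, with a median width of 57 nt, percentiles of 88.2 (UVC), 93.1 (UVA) and 88.6 (iCLIP), 21.8% within 1000 nt and 42.2% with another UVA site within 200 nt. Peaks scoring at least 100 left 173 sites, with a width of 78 nt, percentiles of 99.1, 99.0 and 97.3 in the same order, an iCLIP offset of -10.5 nt, 11.6% on chromosome 19, 56.1% on the plus strand, 6.94% within 1000 nt and 43.4% with another UVA site. There the interval of the UVA offset (-0.5 to 9.0 nt) held 0. Taking 5' ends gave an iCLIP offset of -10.0 nt, and joined partner sites, an alternative chosen after seeing the data like those on repeated intervals and scores of 0 and all values for another UVA site, gave a UVA offset of 11.5 nt and a UVA to iCLIP distance of 19.5 nt. Windows of 1000 kb held up to 21 sites. The score filters leave fewer peaks, and the coverage limits fewer sites, by construction. Under the score filters, percentiles were still taken against the unfiltered lists, so these filters also raise the percentiles by construction. The cause of the other moves was not tested. No paired analysis was possible because each group is 1 pooled list with no replicate numbers, and no replicate could be left out. Base and motif content was not run for lack of an hg19 genome here. The lists give no read numbers, so a PTB or control peak missing at a site may reflect depth.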
